A study of Mus musculus with 90 samples.

Results

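Mesenchymal stromal cells of mouse hindlimb muscle (MmSCs) were compared 1 day after a bout of acute exercise (AEX) and in sedentary controls (SED), in mice that carried Pdgfra-Cre and an intact Piezo1 gene (Piezo1 WT). The comparison was defined by the labels alone: 3 libraries labelled Pdgfra.CRE_Piezo1.WT_AEXd1 and 3 labelled Pdgfra.CRE_Piezo1.WT_SED, 6 of the 90 libraries of the series. Each library came from 1000 cells, double-sorted from dissociated muscle as PDGFRa+ and Sca1+, and as negative for CD31, CD45 and the dead-cell stain DAPI. All mice of these groups carried Cre driven by Pdgfra, so it is present in AEX and SED alike, and Piezo1 was not deleted in either of them. A further 2 pairs of groups are used for comparison, each with 3 AEX and 3 SED libraries. One is Pdgfra-Cre mice with floxed Piezo1 (labelled FLOXED, here FL), with AEX and SED libraries of the same design. The other is a first cohort of mice labelled WT, 8 to 10 weeks old, with no Cre named in its labels. The age of the Pdgfra-Cre mice in these groups, the strain, and the kind and length of the exercise are not named in the labels. No label states that replicates came from separate animals, so p-values measure the spread between these samples.

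MmSCs, also called fibro-adipogenic progenitors, lie between muscle fibres, lay down the matrix around them and send cytokines and growth factors to immune cells and muscle stem cells after injury. Piezo1 is a cation channel opened by stretch of the membrane, and the study set out to learn what mechanical load does to these cells through it. Activated stromal cells are known to pass from a resting progenitor state to one that secretes chemokines and provisional matrix. Such cells take up amino acids and glucose, and their endoplasmic reticulum (ER) carries a larger load of secreted protein.

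The 6 libraries held between 7634090 and 9229481 counts, and 22780 to 24631 gene symbols had at least 1 count. Levels are CPM, counts divided by library size after TMM scaling. For 4 of the 12 Pdgfra-Cre samples the title names another group than the genotype and treatment labels and the library name do. Groups follow genotype, treatment and library name, which match the columns of the count table by name. Columns are tied to groups only, so the replicates are called a, b and c. The sort markers were as labelled in all 6 libraries. Pdgfra measured 498, 496 and 491 CPM in AEX and 649, 527 and 719 CPM in SED, and Ly6a, which encodes Sca1, 1349, 1452 and 1577 CPM in AEX and 1198, 1234 and 1031 CPM in SED. Before TMM scaling, Ptprc, which encodes CD45, was at most 0.346 CPM, and Pecam1, which encodes CD31, at 3.68 to 8.12 CPM. All 12 libraries of the Pdgfra-Cre cohort had the Y-linked pattern of male mice. The first cohort mixed both sexes, in the same way in AEX and SED. There, libraries 1 and 2 of each group had the pattern of female mice and library 3 that of male mice. The SED libraries differed more among themselves (a chi-square per gene of 30.4, 45.6 and 86.6 for the 3 pairs) than the AEX libraries did (10.3, 19.2 and 21.6). SED c stood furthest from the others, and results that rest on it are given with and without it.

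Exercise was followed by higher levels of a secreted activin subunit, lubricin, the chemokine Cxcl1 and 3 cytokines. Some genes for amino acid supply, protein folding, ribosome assembly and glycolysis were also higher. Some collagen and basement membrane genes were lower, as was Cd55, the 1 called of 21 tested markers of resting stroma. Many of these calls were lost when single libraries were left out, as given below. With edgeR's quasi-likelihood test, 147 of 14821 genes tested were called at a Benjamini-Hochberg adjusted p under 0.05 (0.992% of them). Of these, 87 were higher after AEX (0.587%) and 60 were lower (0.405%). At an unadjusted p under 0.05, 991 genes were higher (6.69%) and 836 lower (5.64%). The median log2 difference over all genes tested was -0.01. All 3 AEX libraries lay above all 3 SED libraries for 1615 genes (10.9%) and below them for 1232 genes (8.31%). The groups did not overlap for any of the 87 called higher, nor for 59 of the 60 called lower, the exception being Lamb1. Piezo1 measured 60.1, 52 and 50.8 CPM in AEX and 42.4, 47.7 and 38.8 CPM in SED and was not called (log2 0.34 ± 0.20 SE, adjusted p = 0.527). In the libraries labelled FL it averaged 71.7 ± 13 CPM in AEX and 62.4 ± 15.4 CPM in SED (SD, n = 3 each), so the counts per gene did not show a loss of Piezo1 there, and they do not tell which exons were read.

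**Figure D1:**
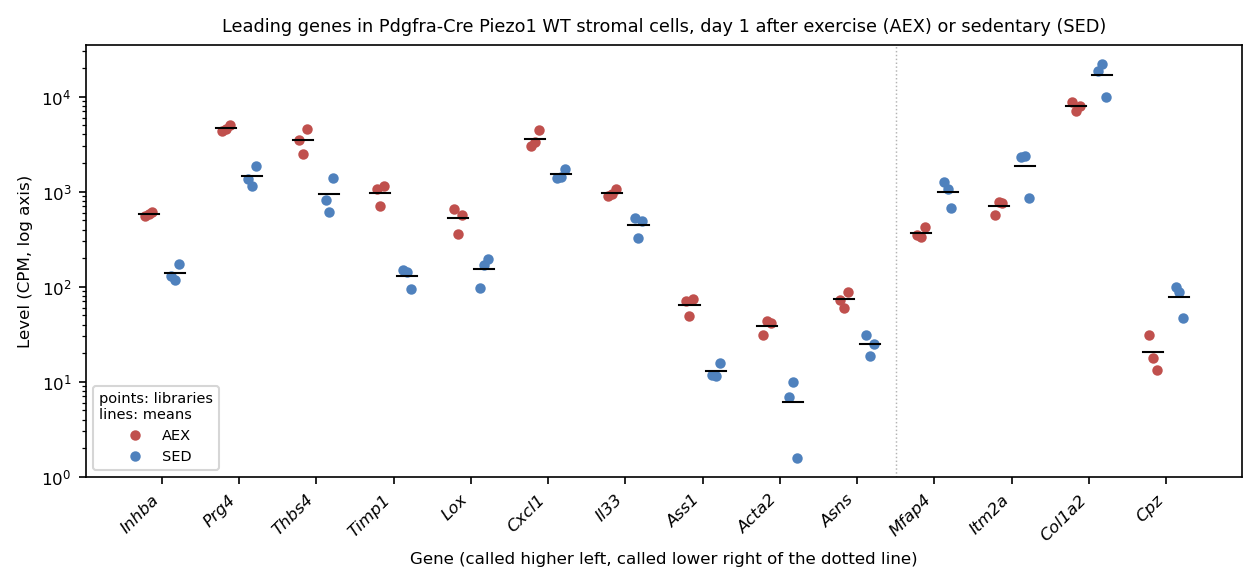
Level of 14 called genes in the 6 libraries of Pdgfra-Cre Piezo1 WT stromal cells, in CPM on a log axis. Red points are the 3 AEX libraries, blue points the 3 SED libraries and black lines the group means; to the left of the dotted line are genes called higher after AEX, to the right genes called lower, and in each gene the groups do not overlap.

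Inhba encodes the subunit that pairs with itself to form activin A, a TGF-beta family ligand that limits muscle mass and acts on fibroblasts and immune cells. It measured 548, 578 and 614 CPM in AEX, against 129.6, 118 and 173 CPM in SED. Every AEX library was above every SED library, and the spread within each group was small beside the gap (log2 2.05 ± 0.19 SE, adjusted p = 3.04e-05). It had the smallest p of all genes and was called under all 12 alternative settings, with a log2 difference between 1.92 and 2.21. Of 39 tested ligands, receptors and inhibitors of the activin, TGF-beta and BMP pathway, Inhba alone was called by edgeR's quasi-likelihood test, while DESeq2 and limma voom each called 1 higher and 1 lower. At an unadjusted p under 0.05, 1 was higher (2.56%) and 1 lower (2.56%), both under the background shares, and the median log2 difference was -0.10. Fst and Fstl3, which encode secreted proteins that bind activin and hold it inactive, were not called: Fst measured 41.4, 58.2 and 46.7 CPM in AEX and 59.6, 59.4 and 69.8 CPM in SED (adjusted p = 0.452), and Fstl3 9.63, 9.36 and 10.0 CPM in AEX and 6.62, 3.69 and 7.79 CPM in SED (adjusted p = 0.451). Bmp1, a protease that trims procollagen, was the lower one (log2 -0.65, adjusted p = 0.081).

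Secreted inflammatory factors rose in part. Cxcl1, a chemokine that draws neutrophils, measured 3035, 3370.3 and 4422 CPM in AEX, against 1379, 1437 and 1743 CPM in SED (log2 1.25 ± 0.25 SE, adjusted p = 0.0237). Il33, an alarmin held in stromal nuclei and known to sustain regulatory T cells in muscle, measured 892, 956 and 1060.1 CPM in AEX, against 525, 325 and 496 CPM in SED (log2 1.11, adjusted p = 0.0269). Groups did not overlap in either gene, and the AEX libraries were about as high as each other for Il33. Tslp, a cytokine of barrier tissues that acts on dendritic cells and innate lymphoid cells, measured 44.5, 20.8 and 31.4 CPM in AEX, against 17.1, 8.49 and 13.1 CPM in SED (log2 1.32, adjusted p = 0.0458). Clcf1, a secreted cytokine that acts through the CNTF receptor, measured 34.1, 21.1 and 33.3 CPM in AEX, against 8.11, 10.3 and 12.7 CPM in SED (log2 1.51, adjusted p = 0.0148). In Tslp and Clcf1 every AEX library was above every SED library. Of the 12 alternative settings, Cxcl1 and Clcf1 were called under 8, Il33 under 7 and Tslp under 6.

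Of 22 tested cytokines and alarmins, 3 were called higher and 0 lower, and 5 (22.7%) were higher at an unadjusted p under 0.05, with a median log2 difference of 0.29. Of 17 chemokines, 1 was called, 6 (35.3%) were higher and 2 (11.8%) lower at an unadjusted p under 0.05, with a median of 0.63. The 2 lower ones, Cxcl9 and Cxcl10, encode T cell chemokines induced by interferon gamma. Cxcl10 measured 37.7, 34.7 and 47 CPM in AEX and 109, 167 and 50.1 CPM in SED and was not called (adjusted p = 0.0689). Lif, a cytokine of the same receptor family as Clcf1, was not called either despite values of 137, 84.9 and 184 CPM in AEX and 11.3, 23.6 and 59.9 CPM in SED (log2 2.10 ± 0.57 SE, adjusted p = 0.136). Its groups did not overlap, but SED c lay near the lowest AEX library. Cxcl5, like Cxcl1 a chemokine for neutrophils, measured 256, 258 and 384 CPM in AEX and 85.9, 50.9 and 28.9 CPM in SED (adjusted p = 0.0863), and Ccl2, a chemokine for monocytes, measured 2563, 2993 and 3982 CPM in AEX and 2125, 1886 and 1005 CPM in SED (adjusted p = 0.216). None of the 21 tested NF-kB subunits and feedback genes was called by edgeR's quasi-likelihood test. At an unadjusted p under 0.05, 5 were higher (23.8%) and 1 lower, DESeq2 called 1 of them and limma voom 2. Vcam1, an adhesion molecule for leukocytes, led them by p (351, 317 and 386 CPM in AEX and 194, 219.5 and 199.9 CPM in SED, adjusted p = 0.0639). Cxcl10, Cxcl9, Lif, Cxcl5 and Ccl2 were picked here after their values were seen.

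Cell surface receptors were among the genes that rose. F2rl1 encodes a receptor that proteases switch on by cutting it, and measured 29.6, 11.6 and 16 CPM in AEX, against 3.65, 3.44 and 1.32 CPM in SED (log2 2.75 ± 0.61 SE, adjusted p = 0.0371). It was low in SED, and every AEX library was above every SED library. Ptgfr, the receptor of prostaglandin F2 alpha, measured 23.8, 29.4 and 25.7 CPM in AEX, against 12.7, 7.75 and 13.1 CPM in SED (log2 1.24, adjusted p = 0.0237). Ptgfr was the only called gene of 14 tested for prostaglandin synthesis and response. The enzymes Rdh10 and Aldh1a2, which carry out the 2 steps from retinol to retinoic acid, both rose: Rdh10 averaged 57.3 ± 4.79 CPM in AEX and 23.2 ± 6.53 CPM in SED (SD, n = 3 each) and Aldh1a2 450.4 ± 164 CPM in AEX and 211 ± 50.8 CPM in SED (SD, n = 3 each). These had log2 differences of 1.30 and 1.10 (adjusted p = 0.0169 and 0.0332), and were picked after their values were seen. Hlf, a transcription factor of the circadian output, was also higher (14.6, 17.4 and 22.8 CPM in AEX and 4.91, 5.41 and 6.33 CPM in SED, adjusted p = 0.00864). Acot7, which cleaves long-chain acyl-CoA, measured 37.2, 36.9 and 45.2 CPM in AEX, against 12.4, 14 and 8.05 CPM in SED (log2 1.79, adjusted p = 0.00711), and Eef1akmt4, a methyltransferase of elongation factor 1A, had a log2 difference of 1.78 (adjusted p = 0.0339).

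Genes of amino acid supply were higher in value as a group, and 4 of them were called, with no overlap between the groups. ATF4 is a transcription factor whose protein is made when translation is limited, and its targets import and make amino acids and charge tRNAs. Asns, asparagine synthetase, measured 71.7, 60.0 and 88.7 CPM in AEX, against 31.2, 18.4 and 24.8 CPM in SED (log2 1.56 ± 0.27 SE, adjusted p = 0.00877). Psat1 and Shmt2, enzymes of serine and glycine synthesis, had log2 differences of 1.17 and 1.15 (adjusted p = 0.0446 and 0.011). Mthfd2, of the mitochondrial folate cycle, had 0.86 (adjusted p = 0.0418). Of 36 tested ATF4 and amino acid supply genes, 4 were called higher and 0 lower, and 16 (44.4%) were higher and 2 (5.56%) lower at an unadjusted p under 0.05, with a median log2 difference of 0.43. Ass1, which joins citrulline and aspartate on the way to arginine, was outside that list and had one of the largest rises. It measured 70.5, 49.1 and 73.4 CPM in AEX, against 11.6, 11.6 and 15.6 CPM in SED (log2 2.32 ± 0.30 SE, adjusted p = 0.00139). Gars, the glycyl tRNA synthetase, measured 247, 214 and 237 CPM in AEX, against 140.2, 136 and 112 CPM in SED (log2 0.84, adjusted p = 0.0128). It was the 1 called of 19 tRNA synthetase genes. All 19 were higher in AEX by their fitted difference, 15 of them at an unadjusted p under 0.05 (78.9%), with a median log2 difference of 0.49 against -0.01 over all genes tested.

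The promoters of Asns and Gars are shown because both genes were called and both hold, close to the start, the composite C/EBP-ATF element through which ATF4 is known to act. Each sequence is the 250 bases before the RefSeq transcription start, read 5′ to 3′ on the gene's own strand (build GRCm38.p6). Asns lies on the minus strand at chr6:7693210-7693459, and Gars on the plus strand at chr6:55037751-55038000. Capitals mark the element, searched as TGATGNAAN on both strands.
Asns: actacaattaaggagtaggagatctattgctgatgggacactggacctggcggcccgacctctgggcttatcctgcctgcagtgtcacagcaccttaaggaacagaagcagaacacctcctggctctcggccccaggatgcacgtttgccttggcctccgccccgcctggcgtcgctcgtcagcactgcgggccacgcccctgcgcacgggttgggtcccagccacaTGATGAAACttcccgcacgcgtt
Gars: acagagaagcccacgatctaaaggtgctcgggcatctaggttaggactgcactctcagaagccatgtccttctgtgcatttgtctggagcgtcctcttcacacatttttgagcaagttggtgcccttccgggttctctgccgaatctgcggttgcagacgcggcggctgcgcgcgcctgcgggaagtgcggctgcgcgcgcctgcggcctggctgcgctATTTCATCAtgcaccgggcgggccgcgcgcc
The match of Asns begins 23 bases before the start on the gene's strand, and that of Gars 31 bases before it on the opposite strand. The element occurred in 3.89% of the 27025 symbols with a promoter and in 2.47% of the tested genes with one. It occurred in 8 of the 30 ATF4 list genes with a promoter (26.7%) and in 3 of 12 tRNA synthetase genes (25%). Among called genes with a promoter, it occurred in 4 of the 68 called higher (5.88%) and in 3 of the 39 called lower (7.69%). Both of these shares were above that of the tested genes but rest on few genes. A match is a description of these letters and not a binding site.

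Some genes for folding and breaking down protein were called higher as well. Calr, a chaperone that holds calcium in the ER, measured 831, 836 and 842 CPM in AEX, against 407, 519 and 293 CPM in SED (log2 1.04, adjusted p = 0.0347). Manf, a secreted factor of ER stress, had a log2 difference of 1.02 (adjusted p = 0.0347), and Sec61b, part of the channel that takes new proteins into the ER, 0.83 (adjusted p = 0.0423). These 3 were called of 25 ER genes tested, 17 of which (68%) were higher at an unadjusted p under 0.05, with a median log2 difference of 0.49. In the cytosol, Cct7 and Cct6a, subunits of the chaperonin ring that folds actin and tubulin, rose (log2 0.87 and 0.72, adjusted p = 0.0405 and 0.0468). They were 2 of 14 chaperonin and prefoldin genes, of which 8 (57.1%) passed an unadjusted p under 0.05 as higher. Hspd1, the mitochondrial chaperonin, rose too (log2 0.91, adjusted p = 0.0274). It was the only called gene of the 21 heat shock chaperones, whose median log2 difference was 0.67 with 12 (57.1%) higher at an unadjusted p under 0.05. It was also the only called one of 20 mitochondrial chaperones and import genes, whose median was 0.57 with 13 (65%) higher. Of 36 proteasome subunits, Psmd13 was called (log2 0.86, adjusted p = 0.0258), and 25 (69.4%) were higher at an unadjusted p under 0.05.

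**Figure D2:**
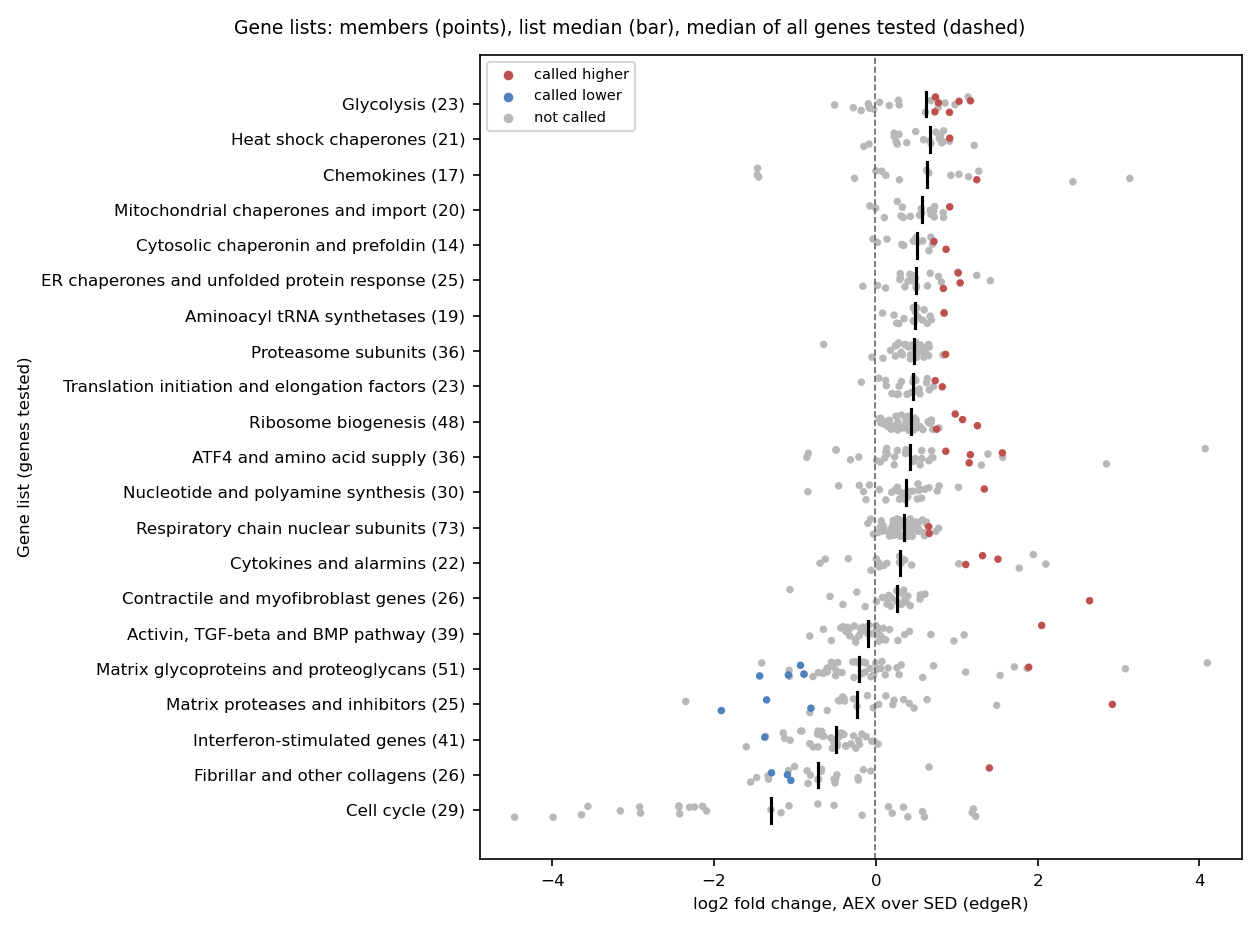
Log2 fold change of AEX over SED (edgeR) for the tested members of 21 gene lists, 1 point a gene, red where called higher, blue where called lower and grey where not called. Black bars are list medians, from 0.67 for heat shock chaperones to -1.30 for the cell cycle, and the dashed line is the median of all genes tested, -0.01.

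Some genes of ribosome assembly and translation also rose. Bop1, needed to process the RNA of the large ribosomal subunit, measured 73.5, 59.6 and 78.4 CPM in AEX, against 34.4, 28.7 and 25.5 CPM in SED (log2 1.26 ± 0.18 SE, adjusted p = 0.00296). Npm1, an abundant nucleolar chaperone, measured 478, 547 and 552 CPM in AEX, against 323, 301 and 313 CPM in SED (log2 0.75, adjusted p = 0.0311). In each gene the AEX libraries lay close together above the SED libraries. With Nhp2 and Ebna1bp2, which had log2 differences of 1.07 and 0.98 (adjusted p = 0.0158 and 0.0238), they were the 4 called of 48 ribosome biogenesis genes. All 48 were higher in AEX by their fitted difference, 22 (45.8%) at an unadjusted p under 0.05, with a median of 0.44. The elongation factor subunits Eef1g and Eef1d rose (log2 0.82 and 0.73, adjusted p = 0.028 and 0.0311), 2 of 23 translation factors, 12 of which (52.2%) were higher at an unadjusted p under 0.05. Nme1, a kinase that makes nucleoside triphosphates, measured 125, 114 and 148 CPM in AEX, against 59.2, 48.3 and 45.3 CPM in SED (log2 1.34, adjusted p = 0.00296). It was the only gene called of 30 for nucleotide and polyamine synthesis, of which 9 (30%) were higher at an unadjusted p under 0.05.

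Glycolysis held the most called members of any list. Of 23 tested genes, 6 were called higher and 0 lower, and 11 (47.8%) were higher at an unadjusted p under 0.05, with a median log2 difference of 0.61. Eno1, enolase, measured 149.5, 168 and 206 CPM in AEX, against 87.1, 71.8 and 73.5 CPM in SED (log2 1.17 ± 0.18 SE, adjusted p = 0.00442). Pkm, pyruvate kinase, measured 463, 467 and 527 CPM in AEX, against 233, 245 and 297 CPM in SED (log2 0.91, adjusted p = 0.0128). Aldoa, aldolase, measured 799, 803 and 825 CPM in AEX, against 499.9, 484 and 479 CPM in SED (log2 0.73, adjusted p = 0.023). All 3 enzymes were within a narrow range inside each group and apart between groups. Pgk1, Ldha and Gpi1 completed the 6, with log2 differences of 1.03, 0.77 and 0.74. In the hypoxia list none of 21 tested genes was called by edgeR's quasi-likelihood test, and at an unadjusted p under 0.05, 2 were higher (9.52%) and 1 lower. DESeq2 called 1 of them, as lower, and limma voom called 0. Kdm3a, a histone demethylase induced by low oxygen, was lower in value (31.5, 26.1 and 36 CPM in AEX and 49.6, 44.9 and 54.4 CPM in SED, adjusted p = 0.0996). In mitochondria, Ndufv1 of complex I and Atp5b of the ATP synthase were called (log2 0.65 and 0.66, adjusted p = 0.0446 and 0.0496). They were 2 of 73 nuclear genes of the respiratory chain, 30 of which (41.1%) were higher at an unadjusted p under 0.05, with a median log2 difference of 0.35. Mitochondrial transcripts made up 0.788% to 0.802% of counts in AEX and 0.627% to 0.718% in SED.

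Transcript length moved with these differences. The median transcript length was 897 bases for the genes called higher and 2220.5 bases for those called lower, against 1483 bases for all genes tested with a length. Across genes, Spearman's rho between log2 difference and length was -0.155 over 14609 genes, which share the same 6 libraries. With an offset per gene and library for length and GC content, chosen after the data were seen, 130 genes were called, among them 116 of the 147. The respiratory chain lost both of its calls there and had a median of 0.30, glycolysis had 3 called and a median of 0.54, and ribosome biogenesis had 4 called and a median of 0.39. The interferon-stimulated and endothelial lists had 0 called with the offset, against 1 and 2 without it. The collagens had 4 called lower with it and the matrix glycoproteins 5. No source used here states whether counting used the strand, so reads of a gene and of an antisense partner could not be told apart.

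Matrix genes moved in both directions. Prg4, lubricin, measured 4304, 4523 and 5067 CPM in AEX, against 1376, 1149 and 1885 CPM in SED (log2 1.66 ± 0.19 SE, adjusted p = 5.27e-04). Thbs4, a thrombospondin of tendon and muscle matrix, measured 3457, 2472 and 4562 CPM in AEX, against 826, 615 and 1389 CPM in SED (log2 1.89 ± 0.30 SE, adjusted p = 0.00711). Neither gene overlapped between groups, and SED c was the highest of the SED libraries in both. Lox, the enzyme that starts cross-links in collagen and elastin, measured 655, 359 and 568 CPM in AEX, against 97.8, 170.2 and 197 CPM in SED (log2 1.77, adjusted p = 0.0213). Timp1, an inhibitor of matrix metalloproteases, measured 1078, 707 and 1143 CPM in AEX, against 149.8, 142 and 93.8 CPM in SED (log2 2.92 ± 0.49 SE, adjusted p = 0.0274). In both genes AEX b was the lowest AEX library and still above every SED library. Col8a1, a short-chain network collagen, measured 822, 798 and 892 CPM in AEX, against 348, 316 and 286 CPM in SED (log2 1.40, adjusted p = 0.0323). Csgalnact1, which starts chondroitin sulfate chains, had a log2 difference of 1.32 (adjusted p = 0.00296). Tnc, a glycoprotein of remodelling matrix picked after its values were seen, measured 985, 448 and 954 CPM in AEX and 55, 46.6 and 37.6 CPM in SED but was not called (log2 4.10 ± 0.79 SE, adjusted p = 0.058).

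Thbs4 was also on the fixed list of tenocyte genes, and none of its other members was called. It was the 1 called of 8 tested, and the median log2 difference of the list was -0.68. The sign of that median rested on SED c. Without SED c it was 0.30, and with limma voom 0.21. In the fits that left out another library it was -1.16 to -0.58. In FL the median was -0.24, and in the first cohort 1.255, with 6 of 7 tested genes positive. Chad, a tendon and cartilage matrix gene, measured 40.5, 42.9 and 37.2 CPM in AEX and 71.5, 0.492 and 211 CPM in SED, and Fmod, fibromodulin, 392, 597 and 316 CPM in AEX and 664, 79.1 and 1998 CPM in SED. Both spanned a wide range inside SED, with SED c highest and SED b lowest, and neither was called. The summed level of the 9 tenocyte genes was 3740 to 5100 CPM in AEX and 964 to 4380 CPM in SED, and Thbs4 itself made up most of it in AEX. What part the tenocyte genes had in the rise of Thbs4 and Prg4 was not tested. In bulk samples such as these, fewer cells of a type and less RNA per cell cannot be told apart.

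Collagen, basement membrane and microfibril genes were among those that fell. Col1a2, a chain of collagen I, measured 8699.6, 7059.7 and 7920.4 CPM in AEX, against 18483, 21967 and 10027 CPM in SED (log2 -1.09 ± 0.23 SE, adjusted p = 0.031). Col14a1, a collagen on the surface of fibrils, measured 512, 569 and 588 CPM in AEX, against 1291, 1478 and 685 CPM in SED (log2 -1.05, adjusted p = 0.0392). In both genes SED c was the SED library nearest to AEX. Col4a5, a chain of collagen IV, fell as well (36.2, 20.8 and 22.7 CPM in AEX and 55.4, 78.7 and 60.7 CPM in SED, log2 -1.29, adjusted p = 0.032). Of 26 collagens tested, 3 were called lower and 1 higher, and 13 (50%) were lower and 2 (7.69%) higher at an unadjusted p under 0.05. Their median log2 difference was -0.71, against 0.10 in FL (15 of 26 positive) and -0.28 in the first cohort (6 of 24 positive). Per library, the list's mean log2 deviation from the gene means of the Pdgfra-Cre cohort was 0.09, -0.45 and -0.18 in AEX. It was 0.48, 0.76 and 0.06 in SED, -0.14 to -0.06 in FL AEX and -0.20 to -0.14 in FL SED. Only SED a and b thus stood above every AEX library, and SED c lay within the AEX range. Lamb1, a laminin chain, and Nid1, which links laminin to collagen IV, had log2 differences of -1.08 and -0.93 (adjusted p = 0.0332 and 0.0408), and Fn1, fibronectin, had -0.89 (adjusted p = 0.0461). Lamb1 was the 1 called gene whose groups overlapped (512, 388 and 369 CPM in AEX and 957, 1225 and 501 CPM in SED). Mfap4, of the microfibrils around elastin, measured 352, 337 and 419.9 CPM in AEX, against 1259, 1069 and 671 CPM in SED (log2 -1.44 ± 0.24 SE, adjusted p = 0.00864). Of 51 matrix glycoproteins and proteoglycans, these 4 were called lower and Thbs4 higher, and 19 (37.3%) were lower and 5 (9.8%) higher at an unadjusted p under 0.05.

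Some secreted proteases fell beside the collagens. Cpz, a secreted carboxypeptidase with a domain like that of WNT receptors, measured 31.1, 17.9 and 13.3 CPM in AEX, against 99.6, 87.6 and 46.5 CPM in SED (log2 -1.91 ± 0.29 SE, adjusted p = 0.00442). Adamts2, which trims procollagens, and Adamts12 had log2 differences of -0.80 and -1.35 (adjusted p = 0.047 and 0.0401), and these made 3 lower and 1 higher of 25 tested in the list of proteases and inhibitors. Ccn3, a matricellular gene, fell in every AEX library (49.1, 76.9 and 68.4 CPM in AEX and 146, 115 and 135 CPM in SED, log2 -1.03, adjusted p = 0.00711). It was the only called gene of 17 on the list of YAP and mechanical response genes.

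The contractile list had 1 called gene of 26. Acta2, smooth muscle actin and the usual mark of myofibroblasts, measured 31, 43.6 and 41.8 CPM in AEX, against 6.97, 9.96 and 1.58 CPM in SED (log2 2.64 ± 0.48 SE, adjusted p = 0.0187). All 3 AEX libraries were above all 3 SED libraries, and SED c was the lowest. Myl9, a regulatory light chain of smooth muscle myosin picked after its values were seen, was lower in value (26.2, 23.2 and 20.6 CPM in AEX and 55.8, 64.2 and 26 CPM in SED, adjusted p = 0.106). The summed level of 12 pericyte and smooth muscle genes, Acta2 among them, was 155 to 167 CPM in AEX and 119 to 159 CPM in SED, and its part in the rise of Acta2 was not tested.

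Genes of resting stroma were lower in part. Cd55, a complement inhibitor that marks universal fibroblasts, measured 166, 203 and 172 CPM in AEX, against 332, 267 and 285 CPM in SED (log2 -0.71, adjusted p = 0.0426). It was the 1 called of 21 resting stromal progenitor markers tested, 7 of which (33.3%) were lower and 1 (4.76%) higher at an unadjusted p under 0.05. By their fitted difference 15 were lower and 6 higher, with a median of -0.19. Ly6a, also on the list, was higher in every AEX library than in any SED library. The summed level of the 22 genes on the list overlapped, at 124000 to 161000 CPM in AEX and 91800 to 199000 CPM in SED. Other large falls were in genes with varied roles. Sox11, a transcription factor of development, measured 9.19, 4.9 and 4.34 CPM in AEX, against 12.9, 20.5 and 20.7 CPM in SED (log2 -1.55, adjusted p = 0.0332). Aoc3, an amine oxidase of the cell surface, measured 11.6, 7.73 and 5.12 CPM in AEX, against 24.8, 30.7 and 16.9 CPM in SED (log2 -1.56, adjusted p = 0.032). Groups were apart in both, by less than the width of SED. Itm2a, a membrane protein, and Peg3, an imprinted zinc finger gene, had log2 differences of -1.40 and -1.39 (adjusted p = 0.0237 and 0.0178). The kinase Nrk, Pi15 and Btbd11 had -2.24, -1.35 and -1.44 (adjusted p = 0.0332, 0.0339 and 0.023), and Nrk ranged widely in SED (16.4, 41 and 6.86 CPM).

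Interferon-stimulated genes were lower in value as a group, with a single call. Of 41 tested, 1 was called lower and 0 higher. By their fitted difference 40 were lower in AEX, 21 of them (51.2%) at an unadjusted p under 0.05 against 5.64% of all genes tested, and the median log2 difference was -0.49. Cmpk2, a mitochondrial nucleotide kinase induced by interferon, was the called one (11.8, 10.1 and 11.4 CPM in AEX and 37.3, 27.7 and 21.2 CPM in SED, log2 -1.37 ± 0.32 SE, adjusted p = 0.0461). Rsad2, which encodes the antiviral enzyme viperin, measured 7.2, 8.93 and 18.7 CPM in AEX and 35.6, 33.9 and 19.9 CPM in SED (adjusted p = 0.0811). Ifit3, an antiviral protein induced by interferon, measured 37.5, 22.1 and 48.8 CPM in AEX and 74, 65.3 and 66.9 CPM in SED (adjusted p = 0.105). AEX c was the highest AEX library in both, and in Rsad2 it came close to SED c, the lowest SED library.

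Promoters of Rsad2 and Ifit3 are shown as examples of the shared sequence in this list, picked after values were seen as the 2 genes of smallest p among those that hold it. It is the interferon-stimulated response element, searched as GAAANNGAAA on both strands and marked in capitals. The sequences are the 250 bases before the RefSeq start (GRCm38.p6), on the minus strand at chr12:26456453-26456702 for Rsad2 and on the plus strand at chr19:34583279-34583528 for Ifit3.
Rsad2: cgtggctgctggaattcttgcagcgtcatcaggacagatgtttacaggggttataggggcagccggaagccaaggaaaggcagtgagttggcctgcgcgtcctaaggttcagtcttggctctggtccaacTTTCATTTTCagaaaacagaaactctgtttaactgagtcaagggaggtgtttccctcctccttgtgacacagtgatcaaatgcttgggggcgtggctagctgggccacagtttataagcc
Ifit3: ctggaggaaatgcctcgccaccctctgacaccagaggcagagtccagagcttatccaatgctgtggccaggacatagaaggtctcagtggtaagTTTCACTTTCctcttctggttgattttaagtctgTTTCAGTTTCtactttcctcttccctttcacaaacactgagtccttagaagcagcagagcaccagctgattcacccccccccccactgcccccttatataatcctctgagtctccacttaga
Rsad2 held 1 match and Ifit3 2, all on the strand opposite to the gene. The element was found in 16 of the 28 interferon-stimulated genes with a promoter (57.1%), in 3.46% of all symbols with one, in 0 of 68 genes called higher and in 0 of 39 called lower.

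**Figure D3:**
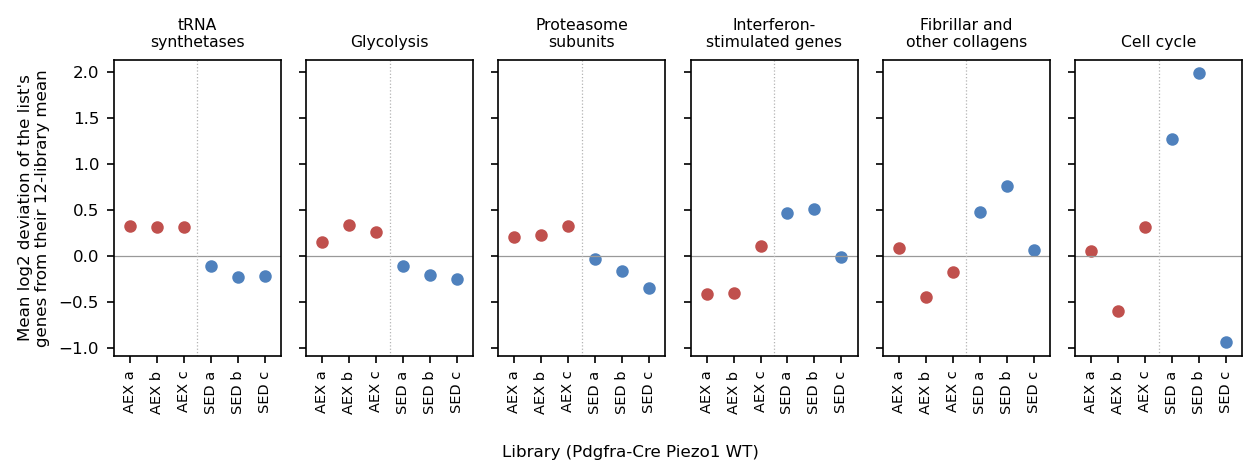
Level of 6 gene lists in each of the 6 libraries, as the mean over a list's tested genes of the log2 deviation from the gene's mean over the 12 libraries of the cohort. Red points are AEX and blue points SED libraries; tRNA synthetases, glycolysis and proteasome genes do not overlap between groups, while SED c lies among the AEX libraries for interferon-stimulated genes and collagens and below them for the cell cycle.

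Libraries of the SED group differed widely in genes of dividing cells. Of 29 cell cycle genes 0 were called by edgeR's quasi-likelihood test, with 4 higher and 8 lower at an unadjusted p under 0.05. DESeq2 called 2 of them and limma voom 1, all as higher after AEX. The median log2 difference of the 29 genes was -1.30. The mean log2 deviation of the list was 0.06, -0.60 and 0.31 in AEX and 1.27, 1.98 and -0.94 in SED, so SED a and b were high and SED c was the lowest library. Cenpf, a kinetochore protein of mitosis, measured 0.332, 0 and 0.668 CPM in AEX and 9.02, 12.4 and 1.45 CPM in SED (adjusted p = 0.0863). In contrast, Mcm3, which licenses replication origins, was higher in value in AEX (34.8, 31 and 28.2 CPM in AEX and 9.59, 18.4 and 12.7 CPM in SED, adjusted p = 0.058). The mitotic genes Nek2 and Kif2c, outside the list and picked after their values were seen, were called lower at low levels: Nek2 measured 0.111, 0 and 0.111 CPM in AEX, against 8.22, 11.3 and 1.32 CPM in SED, and Kif2c 0.111, 0 and 0.111 CPM in AEX, against 3.77, 7.38 and 0.66 CPM in SED. SED c was the nearest to AEX in both.

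SED c was the lowest SED library in 43 of the 60 genes called lower and in 51 of the 87 called higher. Without it, 230 genes were called, 71 higher and 159 lower, and 95 of the 147 were among them. The collagens then had 12 called lower and 0 higher, the matrix glycoproteins 11 lower and 1 higher, the cell cycle 6 lower and the interferon-stimulated genes 4 lower. The ATF4 list then had 3 called higher, glycolysis 4, ribosome biogenesis 3 and the ER list 2. These lists also depended on the other libraries. Glycolysis, with 6 called when no library was left out, had 3 called without AEX a and 1 without AEX b, AEX c, SED a or SED b. The ER list had 0 called without AEX a, AEX b, AEX c or SED a, and 2 without SED b. The ATF4 list had 0 called without AEX c or SED b, 1 without SED a, and 2 without AEX a or AEX b. Ribosome biogenesis had 3 called without AEX a, 2 without SED a, and 1 without AEX b, AEX c or SED b. The collagens had 2 called lower without AEX a, 1 without SED b and 0 without AEX b, AEX c or SED a. The matrix glycoproteins had 2 called lower without AEX a or SED b, 1 without AEX c and 0 without AEX b or SED a. Interferon-stimulated and cell cycle genes had 0 called without AEX a, AEX b, AEX c, SED a or SED b. The cytokines and alarmins had 3 called higher without SED c, 2 without AEX b, and 0 without AEX a, AEX c, SED a or SED b. The chemokines had 2 called higher and 2 lower without SED c, 1 higher without AEX a, and 0 without AEX b, AEX c, SED a or SED b. Again without SED c, the immediate early genes had 3 called higher, and they had 0 without any other library. The respiratory chain and chaperonin lists had 0 called whichever of the 6 libraries was left out. The proteasome list had 1 called without SED a and 0 without any other library. Every one of the 147 genes kept its direction in each fit that left out 1 library. That was close to fixed in advance, as their groups did not overlap except in Lamb1. The count of called genes dropped to 15 without AEX c, to 30 without SED a, to 36 without AEX b, to 44 without SED b and to 63 without AEX a. Inhba, Prg4, Ass1, Csgalnact1, Bop1, Nme1, Eno1, Cpz and Ccn3 were called under all 12 alternative settings.

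Traces of other cell types were small and moved in part with exercise. Ighm, the heavy chain of IgM, measured 1.99, 2.83 and 1.11 CPM in AEX, against 20.0, 21.6 and 6.07 CPM in SED, with -3.00 on the log2 scale (adjusted p = 0.0128). It was the 1 called of 4 tested B, T and NK cell genes. The 16 genes of that list summed to 3.04 to 9.22 CPM in AEX and 9.43 to 23.5 CPM in SED, where Ighm alone made up most of the sum. Igkc, Nkg7 and Gzma had 0 counts in all 6 libraries. Tek, the angiopoietin receptor, and Ptprb, a phosphatase that acts on it, were the 2 called of 7 endothelial genes tested. Tek measured 101, 69 and 59.8 CPM in AEX, against 139, 167 and 137 CPM in SED (log2 -0.95, adjusted p = 0.0461), and Ptprb 2.1, 3.48 and 1.23 CPM in AEX, against 6.85, 7.38 and 15.7 CPM in SED (log2 -2.12, adjusted p = 0.047). The 16 endothelial genes summed to 71 to 126 CPM in AEX and 152 to 184 CPM in SED, and Tek alone made up most of that sum in both groups. Pecam1 did not differ in that way (before TMM scaling, 3.68 to 6.46 CPM in AEX and 3.72 to 8.12 CPM in SED). Macrophage genes summed to 19.2 to 21.6 CPM in AEX and 19.2 to 20 CPM in SED, neutrophil genes to 0.758 to 2.07 CPM in AEX and 0.48 to 1.7 CPM in SED, and muscle fibre genes to 32.2 to 44.1 CPM in AEX and 36.2 to 45.4 CPM in SED. Red blood cell genes spanned 137 to 178 CPM in AEX and 20 to 841 CPM in SED. What part these traces had in the called genes was not tested.

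Several lists had no called member by edgeR's quasi-likelihood test. Of 27 immediate early genes, 2 (7.41%) were higher and 1 (3.7%) lower at an unadjusted p under 0.05, with 0 called by DESeq2 and 1 by limma voom. Of 15 mechanosensitive channels, Piezo1 among them, 0 were higher and 1 (6.67%) lower, with 0 called by DESeq2 and 0 by limma voom. Of 26 growth factors 1 was higher and 6 (23.1%) lower, with 2 and 1 called by the same tools, and Igfbp3 and Igfbp5, which bind insulin-like growth factors, led these by p. Igfbp5 measured 759, 587 and 699 CPM in AEX and 1413, 915 and 874 CPM in SED (adjusted p = 0.136). Of 23 cholesterol synthesis genes 4 (17.4%) were higher and 0 lower, with 1 called by DESeq2 and 1 by limma voom. Of 16 p53 targets 0 were higher and 2 (12.5%) lower, with 0 called by DESeq2 and 0 by limma voom.

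The first cohort, which shares no library with these, was used to see how the called genes behaved after AEX elsewhere. The labels do not say whether the exercise was the same in both cohorts. There 94 of 12777 genes were called (0.736%), 33 higher and 61 lower, and at an unadjusted p under 0.05 7.42% of genes were higher and 7.46% lower. All 87 genes called higher in the Pdgfra-Cre WT cells were tested there, 86 were higher, and 68 (78.2%) were so at an unadjusted p under 0.05. Of the 57 tested genes called lower, 51 were lower, 36 (63.2%) at an unadjusted p under 0.05. Their median log2 difference in the Pdgfra-Cre WT cells, in which they were called, was 1.07 for the higher and -1.03 for the lower genes, against 0.74 and -0.62 in the first cohort. Timp1, F2rl1, Clcf1 and Mif, a cytokine of macrophages and stroma, were called higher in both cohorts. These 4 are 4.6% of the genes called higher here and 12.1% of those called higher there. Fn1, Col14a1, Cd55, Ccn3, Naaa, Pamr1, Klhl13 and Xpnpep2 were called lower in both, 13.3% of the genes here and 13.1% of those there. Clcf1, for example, averaged 16.3 ± 3.19 CPM in AEX and 4.17 ± 1.77 CPM in SED (SD, n = 3 each) in the first cohort (log2 1.95), and Asns 64.4 ± 34.5 CPM in AEX and 13.7 ± 3.94 CPM in SED (SD, n = 3 each) (log2 2.22), of which only Clcf1 was called there. Conversely, of 32 tested genes called higher in the first cohort, 26 were higher here, 16 at an unadjusted p under 0.05. Of 61 called lower there, 58 were lower here, 29 at an unadjusted p under 0.05. Over 12472 genes, Spearman's rho between the log2 differences of the 2 cohorts was 0.389.

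Among the secreted factors, Inhba, Tslp, Il33 and Cxcl1 had smaller fitted differences in the first cohort, and Clcf1 a larger one. Inhba had a log2 difference of 2.05 in the Pdgfra-Cre WT cells, against 0.41 in the first cohort, where it averaged 82.3 ± 17.3 CPM in AEX and 61.9 ± 9.39 CPM in SED (SD, n = 3 each). Tslp had 1.32 in the Pdgfra-Cre WT cells, against -0.29, and so the other sign, in the first cohort, where it averaged 11.5 ± 0.561 CPM in AEX and 14.2 ± 2.64 CPM in SED (SD, n = 3 each). Il33 had 1.11 in the Pdgfra-Cre WT cells, against 0.41 in the first cohort, and Cxcl1 1.25 in the Pdgfra-Cre WT cells, against 0.71 in the first cohort. None of these differences between cohorts was called (adjusted p = 0.107 for Inhba, 0.524 for Tslp, 0.829 for Il33, 0.969 for Cxcl1 and 0.97 for Clcf1). No gene was called for a difference between cohorts by edgeR's quasi-likelihood test (0% of 14503), with 5.56% at an unadjusted p under 0.05, 7 called by DESeq2 and 1 by limma voom. Among the called genes, 13 of the higher and 20 of the lower passed an unadjusted p under 0.05 in that test, which includes the libraries that the genes were called in. The first cohort mixed both sexes and its own count moved with single libraries, to 975 without its AEX 1 and to 1 without its SED 1 or SED 2, to 10 without AEX 2, to 18 without SED 3 and to 37 without AEX 3.

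**Figure D4:**
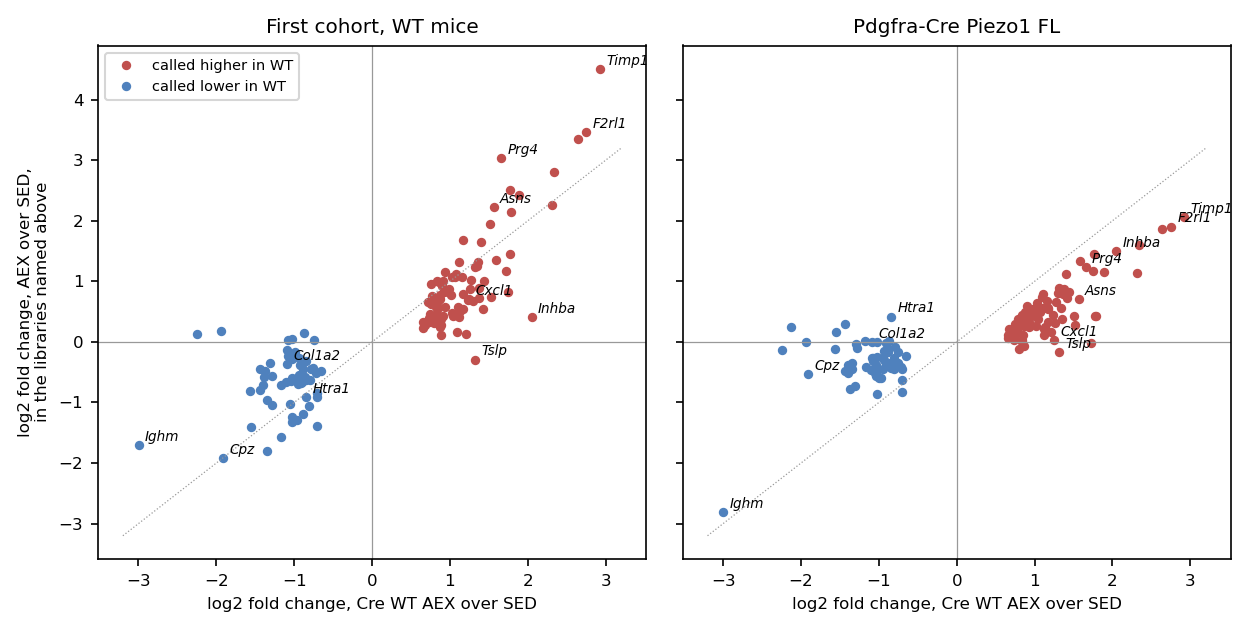
Log2 fold change of AEX over SED for the genes called in Pdgfra-Cre Piezo1 WT stromal cells (horizontal axes) against the log2 fold change of the same genes in the first cohort (left) and in Pdgfra-Cre Piezo1 FL cells (right), which share no libraries with the horizontal axes. Red points are genes called higher and blue points genes called lower, dotted lines mark equal values, and Nek2 and Kif2c, beyond -4 on the horizontal axis, are left out; 86 of 87 red points lie above 0 on the left.

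In the libraries labelled as Pdgfra-Cre mice with floxed Piezo1, the same comparison called 24 genes (0.162%), and at an unadjusted p under 0.05 4.47% of genes were higher and 3.45% lower. Of the 87 genes called higher in WT, 83 were higher in FL, 39 (44.8%) at an unadjusted p under 0.05. Of the 60 called lower, 54 were lower, 19 (31.7%) at an unadjusted p under 0.05. The median log2 difference of these genes in FL was 0.41 and -0.36, against 1.07 and -1.03 in WT, where they had been chosen for their size. Inhba averaged 367 ± 96.3 CPM in AEX and 130.4 ± 11.9 CPM in SED (SD, n = 3 each) in FL (log2 1.49 ± 0.19 SE), Prg4 4075 ± 595 CPM in AEX and 1727 ± 226 CPM in SED (SD, n = 3 each) (log2 1.24), and both were called in FL. The 1 called lower in both was Efhd1, a calcium-binding protein of mitochondria (log2 -0.83 in FL and -0.70 in WT). Cxcl1 averaged 2656 ± 530.3 CPM in AEX and 2603 ± 1137 CPM in SED (SD, n = 3 each) in FL, with a log2 difference of 0.03, and Gars 136 ± 10.5 CPM in AEX and 133 ± 17.8 CPM in SED (SD, n = 3 each), with 0.03. Col1a2 averaged 7857 ± 643 CPM in AEX and 7892 ± 1309 CPM in SED (SD, n = 3 each) in FL (log2 -0.01), where both FL groups were near the level of the WT AEX libraries.

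The difference between the genotypes' responses was called for no gene by edgeR's quasi-likelihood test (0% of 14821). At an unadjusted p under 0.05, 884 genes passed (5.96%), DESeq2 called 1 and limma voom 0, and 4 were called without WT SED c. For Cxcl1 the difference of FL minus WT responses was -1.22 ± 0.35 SE on the log2 scale (adjusted p = 0.737), for Inhba -0.56 ± 0.26 (adjusted p = 0.831) and for Gars -0.82 ± 0.22 (adjusted p = 0.737). Of the called genes, 42 of the higher and 37 of the lower passed an unadjusted p under 0.05 in that test. As they were picked on the WT libraries that also enter it, this count is a description. None of these genes can be called particular to Piezo1 WT cells.

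**Figure D5:**
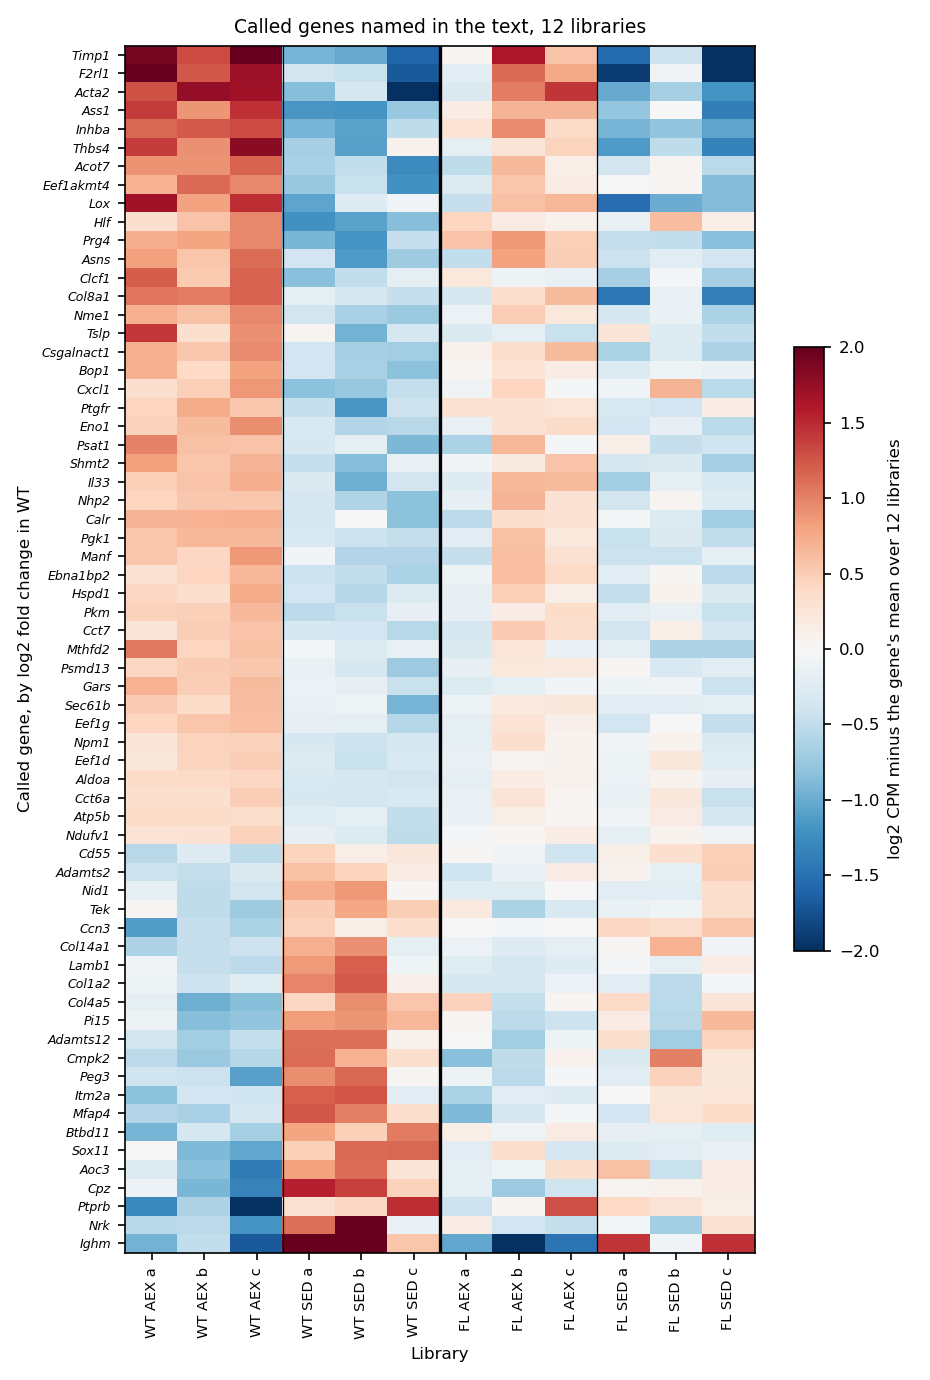
Log2 CPM of called genes picked by the naming rule, minus each gene's mean over the 12 libraries of the Pdgfra-Cre cohort, with WT AEX, WT SED, FL AEX and FL SED libraries from left to right and genes ordered by log2 fold change in WT. Red is higher and blue lower than the gene's mean. The WT AEX libraries are red for the genes called higher. For most genes called lower, the highest library is WT SED a or b. It is WT SED c for Ptprb, Sox11 and Btbd11, and FL SED c for Cd55 and Ccn3.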

How the data were processed

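Gene-level read counts of the 90 libraries were deposited by the authors as 1 table of 55011 gene symbols, not normalized. Per the submitters' processing notes, STAR 2.7.3a, featureCounts and the mm10 build were used. For the version of featureCounts, its annotation and its strand setting, no statement was found in the labels or notes. Symbols were matched for length to GENCODE M21 (52936 symbols, 96.2%). Genes were kept with filterByExpr (minimum count 10), scaled with TMM factors and tested with edgeR 4.0.16 (glmQLFit, glmQLFTest, R 4.3.3), with Benjamini-Hochberg adjustment over all genes tested and a threshold of 0.05. The 12 Pdgfra-Cre libraries were fitted together with 1 coefficient a group, so that they share the estimate of spread, and the first cohort was fitted on its own. The difference between genotypes was a contrast of that fit, and the difference between cohorts came from 1 fit over both. The script was tested on simulated data. Depth was 7634090 to 9229481 counts in the 6 libraries compared, 5634784 to 10184888 in the 12 Pdgfra-Cre libraries and 4992175 to 6805816 in the first cohort, and no interval is given for single counts, as all values rest on replicates.

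Alternatives were RLE scaling, no filter on low counts, DESeq2 1.42.0, limma 3.58.1 voom with quality weights, the 6 libraries alone, each library left out in turn, a replicate block in the first cohort and, added after the data were seen, an offset for transcript length and GC content. The members and the 45 gene lists were chosen with earlier results of these data known. Genes were named by rule: Piezo1, up to 12 called genes a direction with the largest fold (mean of at least 10 CPM, no overlap), the 6 called genes of smallest p, and of each list up to 4 called members or, with none called, the 2 of smallest p. Of these, 2 genes are not reported here. Members of lists named beyond that rule, such as Gpi1, Ldha, Fn1, Fst, Fstl3, Bmp1, Chad and Fmod, and Efhd1 and the genes called in both cohorts, were chosen after their values were seen. Sequences came from RefSeq promoters (GRCm38.p6).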

Additional observations from a re-analysis of the deposited data

How the results depend on the processing

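Every one of the 147 genes called in Pdgfra-Cre Piezo1 WT cells that had a value kept its direction under each of the 12 alternatives. DESeq2 and the fit of the 6 libraries alone had a value for 146, the others for 147. Kept directions were close to fixed in advance under all of these alternatives. They use the same 6 libraries, or all but 1 of them, and the groups overlapped only in Lamb1. The number of called genes was 155 with RLE scaling, 130 with the length and GC offset and 153 from the 6 libraries alone, but 398 with no filter on low counts, 443 with DESeq2 and 357 with limma voom, which held 145, 146 and 144 of the 147. Leaving out 1 library gave 15 to 230 called genes. Of the 67 named genes that were called, 9 were called under all alternatives. None reversed, which was likewise close to fixed in advance. The difference between genotypes had 15 calls with no filter and 1 with DESeq2, and 0 to 4 when 1 library was left out. The first cohort had 650 calls with no filter, 432 with DESeq2 and 250 with limma voom, and 1 to 975 with 1 library left out. The difference between cohorts had 45 calls with no filter, 7 with DESeq2, 1 with limma voom and 1 with the length and GC offset, and 0 to 12 with 1 library left out, the highest without AEX 1 of the first cohort. The cause of these changes was not tested, except that fewer samples entered each fit with a library left out. With a replicate block, the first cohort had 115 calls against 94. There, the correlations of same-numbered libraries were -0.0185 to 0.121, and 1 of 3 was above 0.1. Of 6 libraries, 2 correlated best with their own number, AEX 3 and SED 3, which are the male libraries of that cohort. The number was taken as a name and not as a pairing. It does follow sex there, so the replicate block also carries sex. No paired analysis was possible in the Pdgfra-Cre cohort because titles and library names disagree on the replicate number. With 3 libraries a group, genes at few counts a library, such as Nek2 and Kif2c, rest on single reads in AEX.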

Other observations

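Fat cell genes were at low or variable levels in these stromal cells. The list of adipogenic genes, tested for 7 of its 13 members, had 0 called by edgeR's quasi-likelihood test, 1 by DESeq2 and 1 by limma voom, with 0 higher and 3 (42.9%) lower at an unadjusted p under 0.05 and a median log2 difference of -0.41. Lpl, the lipase that frees fatty acids from circulating lipoproteins, measured 527, 476 and 332 CPM in AEX and 725, 943 and 548 CPM in SED (log2 -0.73 ± 0.22 SE, adjusted p = 0.116). Fabp4, a fatty acid carrier of adipocytes and endothelium, measured 0, 0 and 0.111 CPM in AEX and 1.49, 1.48 and 0.528 CPM in SED (adjusted p = 0.209), which is at most a few reads a library in AEX. Adipoq, adiponectin, had 0 counts in all 3 AEX libraries. The summed level of the 13 genes was 479 to 807 CPM in AEX and 859 to 1090 CPM in SED, without overlap, and Lpl alone made up most of it.

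Enzymes that finish collagen had values on both sides of 0. Of 19 genes for collagen modification and cross-linking, Lox alone was called, with 5 (26.3%) higher and 3 (15.8%) lower at an unadjusted p under 0.05 and a median log2 difference of 0.16. Loxl4, a relative of Lox, measured 13.8, 28 and 23.7 CPM in AEX and 12.7, 12.7 and 13.1 CPM in SED (adjusted p = 0.234), and Plod1, a lysyl hydroxylase, 321, 332 and 289 CPM in AEX and 505, 433 and 319.9 CPM in SED (adjusted p = 0.311). Among 12 complement genes, Cd55 was the 1 called, and Cfb, a factor of the alternative pathway, was higher in value (24.2, 28.1 and 33.5 CPM in AEX and 14.6, 17.3 and 20.6 CPM in SED, adjusted p = 0.161). Loxl4, Plod1 and Cfb were picked after their values were seen. The glial gene list summed to 781 to 917 CPM in AEX and 824 to 973 CPM in SED, and none of its 5 tested genes was called by edgeR's quasi-likelihood test, DESeq2 or limma voom, with 0 at an unadjusted p under 0.05.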
